A study of Mus musculus with 18 samples.

Results

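The antioxidant and glutathione defence genes are 35 mouse genes that encode the enzymes which remove superoxide and peroxides, the thioredoxin and glutathione systems which feed them, the NRF2 axis and the metallothioneins. They were chosen by gene symbol, and all 35 were found in both tables of 24421 genes. RNA was sequenced from 18 libraries in 6 groups of 3. Of these, 12 came from cultured bone marrow (BM) mesenchymal stem cells (MSCs) at week 1 or week 4 after Cre, and 6 from tdTomato+ cells sorted directly from BM. The cultured cells were adherent CD51+/PDGFRα+ cells of C57BL/6 mice aged 4 to 6 months, which were Pot1a wild/wild (wt/wt) or Pot1a flox/flox (Δ/Δ once treated). Both genotypes carried a flox-stop-flox tdTomato reporter and were exposed for 12 hours to vesicles carrying Cre recombinase, at 10 µL per well. Only cells that had turned tdTomato+ 48 hours later were kept, so the wt/wt cells had seen Cre as well. The sorted cells came from C57BL/6 mice aged 2 weeks with NG2-cre and a loxp-tdTomato reporter, and the sample titles call them Pot1a wt/Δ (1 wild-type copy left) and Pot1a Δ/Δ. The genotype field of all 6 sorted libraries reads POT1afl/fl, so these groups follow the titles. NG2-cre is active in pericytes of the whole body. By the study's flow cytometry, tdTomato+ BM cells fell within the PDGFRα+CD51+ fraction negative for CD45, TER119 and CD31, while the labels describe the sequenced cells only as sorted tdTomato+ cells. The wt/Δ controls had thus lost 1 copy, unlike the wt/wt controls in culture.

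The targeted gene, Pot1a, encodes a protein of the shelterin complex that binds single-stranded telomere ends. Its level was 34.9 ± 1.51 CPM (SD, n = 3) in wt/wt and 34.5 ± 3.41 CPM in Δ/Δ at week 1, and 34.9 ± 2.54 and 45.6 ± 2.62 CPM at week 4, where the libraries labelled Δ/Δ were higher (log2 difference 0.39 ± 0.11, adjusted p = 0.0298, edgeR). In sorted cells it was 30.4 ± 3.71 CPM in wt/Δ and 27.0 ± 6.77 CPM in Δ/Δ. A gene-level count also holds reads from exons outside the floxed segment, so it does not check the deletion. The names wt/wt, wt/Δ and Δ/Δ are used here as on the libraries. By its own assays, the study reported loss of the floxed band and significantly less Pot1a mRNA by qPCR in the cultured cells. It also reported reduced Pot1a by qPCR in sorted tdTomato+ cells. CPM is a gene's count as a share of the library's reads in genes that passed the filter on low counts (counts per 1000000 reads). It was scaled by TMM within the cultured or the sorted experiment. Library totals ran from 12807832 to 90717232 counts in culture and from 28918757 to 49992698 in sorted cells. All 11 stromal markers (among them Pdgfra, Itgav, Cxcl12 and Lepr) were detected in every group. Markers of blood and endothelial cells summed to at most 21.6 CPM per list in the cultured libraries. In the sorted libraries the neutrophil markers alone summed to 2252 to 4435 CPM in wt/Δ and 2292 to 4205 CPM in Δ/Δ. Endothelial markers there summed to 1318 to 1902 CPM in wt/Δ and 1921 to 2075 CPM in Δ/Δ, without overlap. All 7 had a higher fitted level in Δ/Δ and none passed by edgeR, while the sums of every blood cell list overlapped. The part of endothelial content in the members' differences was not tested.

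Superoxide, which leaks from mitochondrial respiration and is made by NADPH oxidases, is turned into hydrogen peroxide by the superoxide dismutases. Catalase, the glutathione peroxidases and the peroxiredoxins then remove the peroxide. Several of the peroxidases use electrons from glutathione and most of the peroxiredoxins electrons from thioredoxin. Both carriers are recharged by reductases that spend NADPH. NRF2, encoded by Nfe2l2, is a transcription factor that KEAP1 marks for degradation until cysteines of KEAP1 are oxidised, after which NRF2 pairs with small MAF proteins on antioxidant response elements. In BM stromal cells, redox balance is known to bear on the choice between osteoblast and adipocyte fates. The study measured reactive oxygen species in these cells, and the comparisons below ask how the transcripts of the defence system differed by genotype and by time in culture.

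Levels between genes were compared per kb of exon. Gpx3, the secreted plasma glutathione peroxidase, had the highest mean level in both experiments, at 483 CPM per kb (214 to 1082) over the 12 cultured libraries and 908 CPM per kb (565 to 1632) over the 6 sorted ones. Gpx1, the cytosolic glutathione peroxidase, stood next at 333 CPM per kb (266 to 400.0) and 414 CPM per kb (324 to 619), followed by Gpx8, a peroxidase of the endoplasmic reticulum, at 221 CPM per kb (151 to 331) and 332 CPM per kb (196 to 468). This order in culture rests on week 4. At week 1 Gpx1 stood above Gpx3, at 339 against 251 CPM per kb in wt/wt and 329 against 230.2 CPM per kb in Δ/Δ, with no overlap between the libraries of the pair in either group. At week 4 Gpx3 was at 441 CPM per kb in wt/wt and 1010.2 CPM per kb in Δ/Δ, against 302 and 361 CPM per kb for Gpx1, again with no overlap. Over all libraries of an experiment the ranges of neighbours in the order of means overlapped. Prdx1, a cytosolic peroxiredoxin, came next in both by its mean, at 169 CPM per kb (130.5 to 241) and 205 CPM per kb (151 to 262). At week 1 Prdx1 was above Gpx8, at 221 against 167 CPM per kb in wt/wt and 178 against 163 CPM per kb in Δ/Δ. The next place went to G6pdx, which makes NADPH at the entry of the pentose phosphate pathway, in culture (118 CPM per kb (73.1 to 147)) and to Mgst1, a membrane-bound glutathione transferase, in sorted cells (183 CPM per kb (147 to 271)). At the low end, Slc7a11, the cystine importer that supplies glutathione synthesis, was at 0.345 CPM per kb (0.0809 to 0.644) in culture and 0.120 CPM per kb (0.0749 to 0.168) in sorted cells. Lengths are unions of all annotated exons and understate the level of genes with long, rarely used exons, such as Sod1 with 3970 exon bases.

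**Figure D1:**
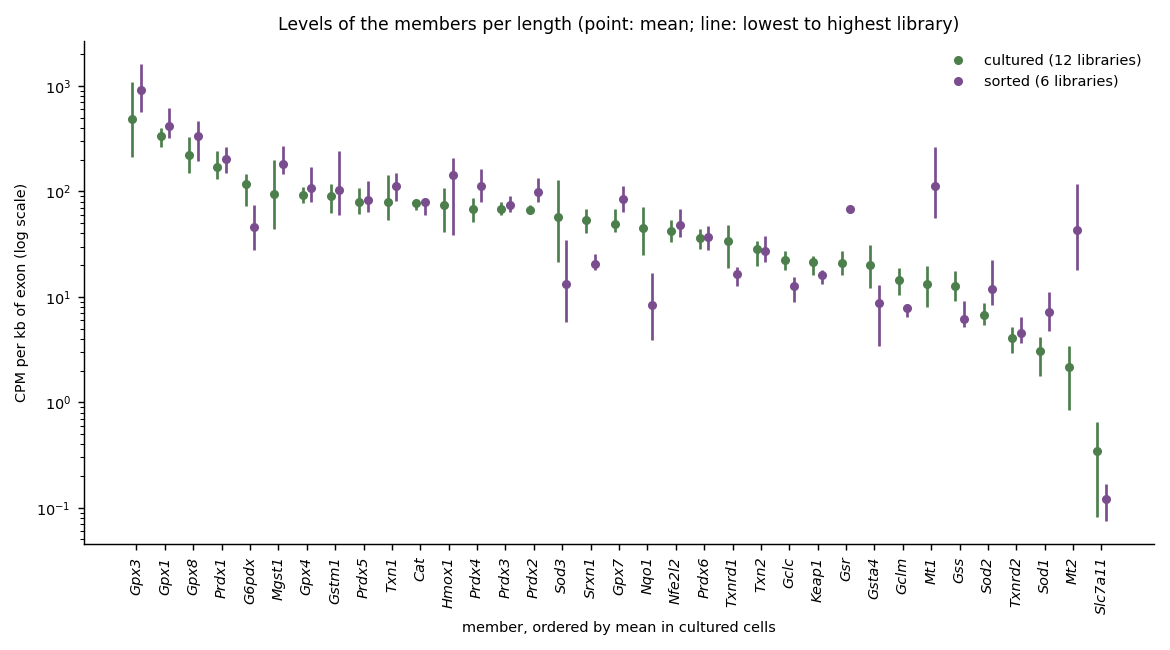
Level of each of the 35 members in CPM per kb of exon on a log axis, ordered by the mean over the 12 cultured libraries (green), with the 6 sorted libraries in purple. Points are means and lines run from the lowest to the highest library. Gpx3, Gpx1, Gpx8 and Prdx1 head both experiments by their means over all libraries, and the ranges of Mt1 and Mt2 lie higher in sorted than in cultured cells, which were scaled separately.

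Set side by side with no test, since the cultured and sorted cells differed in mouse age, in genotype of the controls and in preparation, 10 members had ranges that did not overlap between the experiments, which were scaled separately. The share of all genes with such ranges was not counted, so the number cannot be read as a trait of the members. Higher in sorted cells were Sod1, Prdx2, Gsr, Mt1 and Mt2, and higher in culture Srxn1, Gclc, Gclm, Gss and Nqo1. Mt1, a zinc- and copper-binding protein that also scavenges radicals, lay between 10.0 and 24.5 CPM in the 12 cultured libraries and between 70.3 and 329.6 CPM in the 6 sorted ones. Mt2 lay between 0.497 and 2.02 CPM and between 10.7 and 68.8 CPM. Nqo1, a quinone reductase and classic NRF2 target, went the other way, with 38.8 to 110.3 CPM in culture and 6.11 to 25.9 CPM in sorted cells. Gsr lay between 44.0 and 75.3 CPM in culture and between 173 and 201 CPM in sorted cells, while the ranges of Gss all but touched.

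At week 1, no member passed the test between Δ/Δ and wt/wt. Of all 13169 tested genes, 1.02% did (0.752% higher and 0.266% lower, edgeR quasi-likelihood test, Benjamini-Hochberg adjusted p under 0.05), and all 35 members had passed the filter on low counts. The fold changes lay mostly below 0: 30 of 35 members had a lower fitted level in Δ/Δ, where 50.7% of all genes did, and the median member was at -0.15 on the log2 scale against -0.0036 over all genes. In 11 members every Δ/Δ library lay below every wt/wt library (background 10.8%), and in 2 every Δ/Δ library lay above (background 11.8%). At an unadjusted p under 0.05 there were 8 members, 7 of them lower, with 11.9% of all genes at that level. Without wt/wt replicate 1, 23 members lay below 0 and the median was -0.09, and the share of all genes below 0 in that fit was not counted.

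The lowest adjusted p belonged to Nqo1. Its CPM was 103, 110.3 and 102 in the 3 wt/wt libraries and 85.6, 79.0 and 74.8 in the 3 Δ/Δ libraries. Every Δ/Δ value lay below every wt/wt value, and the log2 difference was -0.40 ± 0.10 (SE), adjusted p = 0.0796 by edgeR. Prdx1 was at 734, 616 and 670.4 CPM in wt/wt and 559, 525 and 539 CPM in Δ/Δ, again without overlap, with a log2 difference of -0.32 ± 0.10 (SE), adjusted p = 0.157 by edgeR. DESeq2 called these 2 members, Nqo1 with an adjusted p of 0.0109 and Prdx1 with 0.0342, out of 453 genes in all.

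Of the other members with unadjusted p under 0.05, 3 belonged to glutathione synthesis and recycling (Gclm, Gsr and G6pdx). The rest, Hmox1, Srxn1 and Sod3, belonged to other parts of the system. Gclm, the modifier subunit of glutamate-cysteine ligase, was at 82.3, 84.9 and 105 CPM in wt/wt and 69.4, 76.2 and 65.6 CPM in Δ/Δ (log2 -0.36 ± 0.14 (SE), adjusted p = 0.287, edgeR). Gsr, the glutathione reductase, was at 62.8, 63.3 and 75.3 CPM in wt/wt and 51.1, 56.5 and 53.6 CPM in Δ/Δ (log2 -0.32 ± 0.11 (SE), adjusted p = 0.246, edgeR), and G6pdx at 431, 452 and 442 CPM in wt/wt and 409.9, 329 and 369.7 CPM in Δ/Δ (log2 -0.26 ± 0.12 (SE), adjusted p = 0.41, edgeR). In each of these the Δ/Δ libraries lay below the wt/wt libraries without overlap, and in none did the adjusted p pass. Hmox1, the heme oxygenase, was at 160.5, 159 and 149 CPM in wt/wt and 125, 97.1 and 95.3 CPM in Δ/Δ (log2 -0.56 ± 0.23 (SE), adjusted p = 0.353, edgeR). It passed, with an adjusted p of 0.0494, when only the 6 week 1 libraries were fitted. Srxn1, the sulfiredoxin that restores overoxidised peroxiredoxins, was at 146, 182 and 194 CPM in wt/wt and 148, 127 and 151 CPM in Δ/Δ, with overlap (log2 -0.29 ± 0.12 (SE), adjusted p = 0.353, edgeR). Sod3 and Slc7a11 differed in the other direction. Sod3, the extracellular superoxide dismutase, was at 127, 106 and 80.3 CPM in wt/wt and 142, 176 and 185 CPM in Δ/Δ, where every Δ/Δ library was higher (log2 0.68 ± 0.22 (SE), adjusted p = 0.18, edgeR). Slc7a11 was at 5.36, 4.33 and 5.01 CPM in wt/wt and 6.47, 8.57 and 8.97 CPM in Δ/Δ, also with every Δ/Δ library above (log2 0.71 ± 0.34 (SE), adjusted p = 0.433, edgeR, with an unadjusted p above 0.05). The summed level of 7 immediate early genes (Fos, Jun, Egr1 and others) was 639 to 2139.6 CPM in wt/wt and 601 to 627 CPM in Δ/Δ. Stromal markers summed to 16428 to 19209 CPM in wt/wt and 22125 to 23444 CPM in Δ/Δ. Osteoblast markers, 4 of 8 with a lower fitted level, summed to 10565 to 12765 and 7664 to 9989 CPM. Proliferation markers summed to 785 to 825 and 721 to 766 CPM. No gene of these lists passed, and their part in these differences was not tested.

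**Figure D2:**
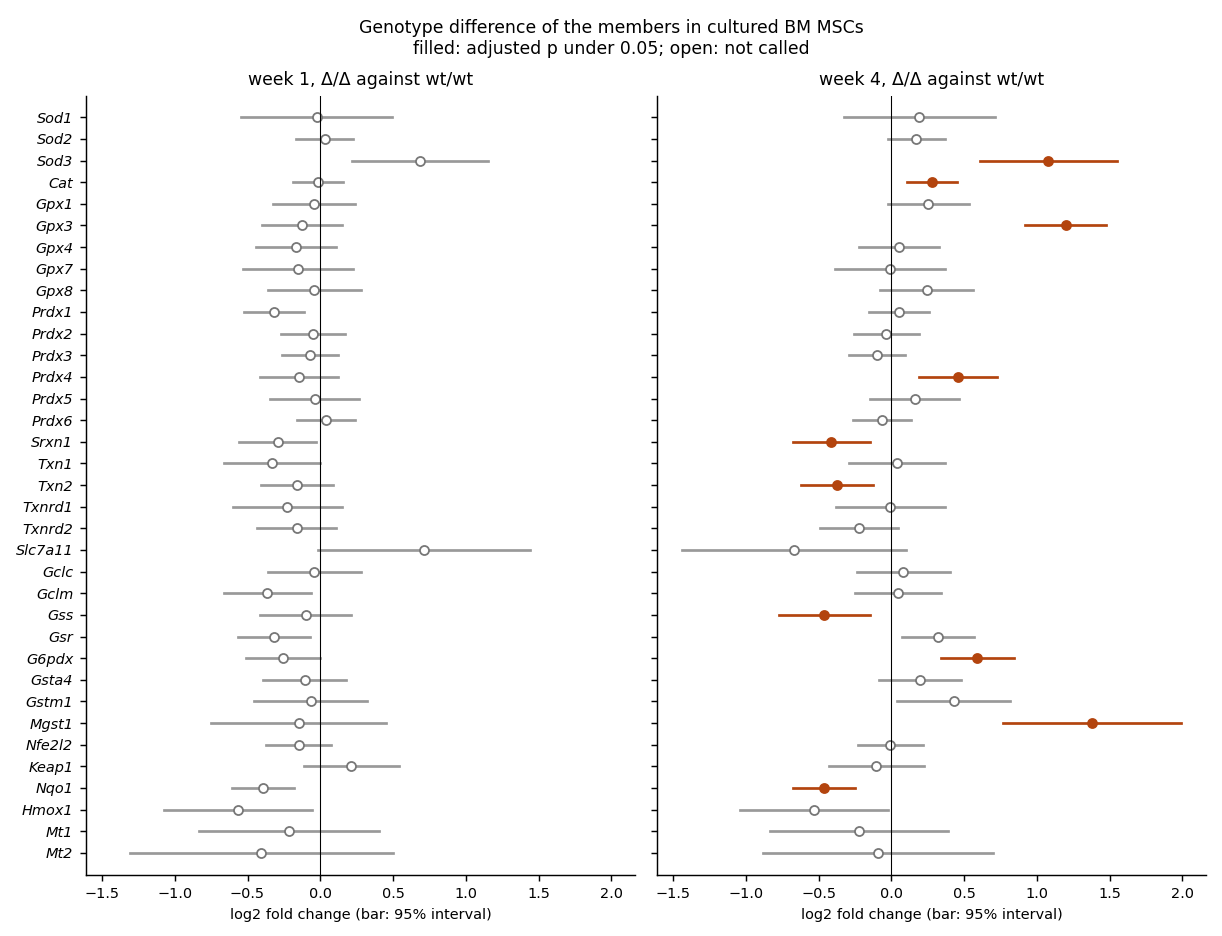
Log2 fold change of each member in Δ/Δ against wt/wt at week 1 (left) and week 4 (right), with 95% intervals from the edgeR fit of all 12 cultured libraries. Filled points have an adjusted p under 0.05 and open points do not. No point is filled at week 1, where 30 of 35 lie below 0. At week 4, 6 filled points lie above 0 (Sod3, Cat, Gpx3, Prdx4, G6pdx, Mgst1) and 4 below (Srxn1, Txn2, Gss, Nqo1).

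At week 4, 10 of the 35 members differed between Δ/Δ and wt/wt, or 28.6%, beside 15.7% of all genes. Higher in Δ/Δ were Sod3, Cat, Gpx3, Prdx4, G6pdx and Mgst1 (9.2% of all genes were called higher), and lower were Srxn1, Txn2, Gss and Nqo1 (6.46% of all genes). The median member was at 0.04 on the log2 scale and the median gene at 0.0024. Unadjusted p was under 0.05 for 13 members (27% of all genes), 16 had a lower fitted level in Δ/Δ (49.7%), and the genotypes did not overlap in 8 members that were higher (15.5%) and 5 that were lower (11.8%). The largest differences were in Mgst1, Gpx3 and Sod3, each over 2-fold in group means, and the others were under that. Sod3, Gpx3, G6pdx and Mgst1 kept their call in all 14 alternatives run. The count of called members fell to 6 without wt/wt replicate 3, to 6 without Δ/Δ replicate 2 and to 5 without Δ/Δ replicate 3. The number of all genes called fell as well, from 2062 to 1724, 1642 and 1551. These are bulk libraries, in which fewer cells of a type and less RNA per cell cannot be told apart.

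Among the superoxide dismutases, Sod3 was at 212, 188 and 158 CPM in wt/wt and 421, 273 and 483 CPM in Δ/Δ. The lowest Δ/Δ library (replicate 2) lay above the highest wt/wt library, and the group means differed 2.11-fold (log2 1.08 ± 0.22 (SE), adjusted p = 0.00425, edgeR). Sod1, the cytosolic copper-zinc enzyme, was at 7.10, 13.1 and 10.6 CPM in wt/wt and 10.2, 11.3 and 13.8 CPM in Δ/Δ with overlap, and its 95% interval ran from -0.33 to 0.71 on the log2 scale. Sod2, the mitochondrial manganese enzyme, was at 76.7, 73.0 and 69.3 CPM in wt/wt and 81.1, 78.4 and 86.8 CPM in Δ/Δ. Its Δ/Δ libraries were all above the wt/wt ones, but the test did not pass (adjusted p = 0.261, edgeR).

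Of the enzymes that reduce peroxide, Gpx3 showed the smallest adjusted p of all members. Its level was 887, 795 and 716 CPM in wt/wt and 1841, 1691 and 1962 CPM in Δ/Δ. The lowest Δ/Δ library lay far above the highest wt/wt library, a 2.29-fold difference of means (log2 1.20 ± 0.13 (SE), adjusted p = 3.61e-05, edgeR). Cat, the peroxisomal catalase, was at 176, 173 and 175 CPM in wt/wt and 213, 214 and 209 CPM in Δ/Δ. The difference was small, 1.21-fold, but larger than the spread within either group (log2 0.28 ± 0.08 (SE), adjusted p = 0.031, edgeR). That call was lost without wt/wt replicate 2 or 3 or without any 1 of the Δ/Δ replicates (adjusted p 0.0733 to 0.105). Gpx1 was at 484, 441 and 383 CPM in wt/wt and 543, 439.8 and 576 CPM in Δ/Δ, and Gpx4, which reduces lipid peroxides in membranes, at 158, 151 and 134 CPM in wt/wt and 156, 135 and 169.5 CPM in Δ/Δ. Both overlapped between genotypes and did not pass. Gpx8, at 333, 239 and 224 CPM in wt/wt and 347, 286 and 308 CPM in Δ/Δ, and Gpx7 overlapped as well.

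Of the 7 genes of the peroxiredoxin cycle, 1 was higher and 1 lower. Prdx4, the secretory pathway peroxiredoxin, was at 145, 126 and 108 CPM in wt/wt and 181, 158 and 179.7 CPM in Δ/Δ (log2 0.46 ± 0.12 (SE), adjusted p = 0.0237, edgeR). The groups did not overlap, and the call was lost without wt/wt replicate 2 or 3 or Δ/Δ replicate 1 or 3 (adjusted p 0.0712 to 0.092). Srxn1 went down, from 168, 162 and 158 CPM in wt/wt to 136, 118 and 114 CPM in Δ/Δ (log2 -0.41 ± 0.12 (SE), adjusted p = 0.0373, edgeR). No library overlapped, but leaving out any 1 wt/wt replicate or Δ/Δ replicate 2 or 3 lost the call (adjusted p 0.0576 to 0.124). Prdx1 was at 435, 409 and 397 CPM in wt/wt and 428, 433 and 424 CPM in Δ/Δ, and Prdx2, Prdx3, Prdx5 and Prdx6 overlapped between genotypes as well. Among the thioredoxins, Txn2, the mitochondrial thioredoxin, was lower at 104, 83.0 and 90.8 CPM in Δ/Δ against 139, 108 and 113 CPM in wt/wt (log2 -0.37 ± 0.11 (SE), adjusted p = 0.0439, edgeR). That call was lost without wt/wt replicate 1 or Δ/Δ replicate 2 or 3 (adjusted p 0.11 to 0.134). Cytosolic Txn1, at 58.7, 58.5 and 57.5 CPM in wt/wt and 59.7, 55.8 and 64.0 CPM in Δ/Δ, its reductase Txnrd1, at 133, 213 and 210.4 CPM in wt/wt and 154, 210.0 and 189 CPM in Δ/Δ, and mitochondrial Txnrd2 did not pass.

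**Figure D3:**
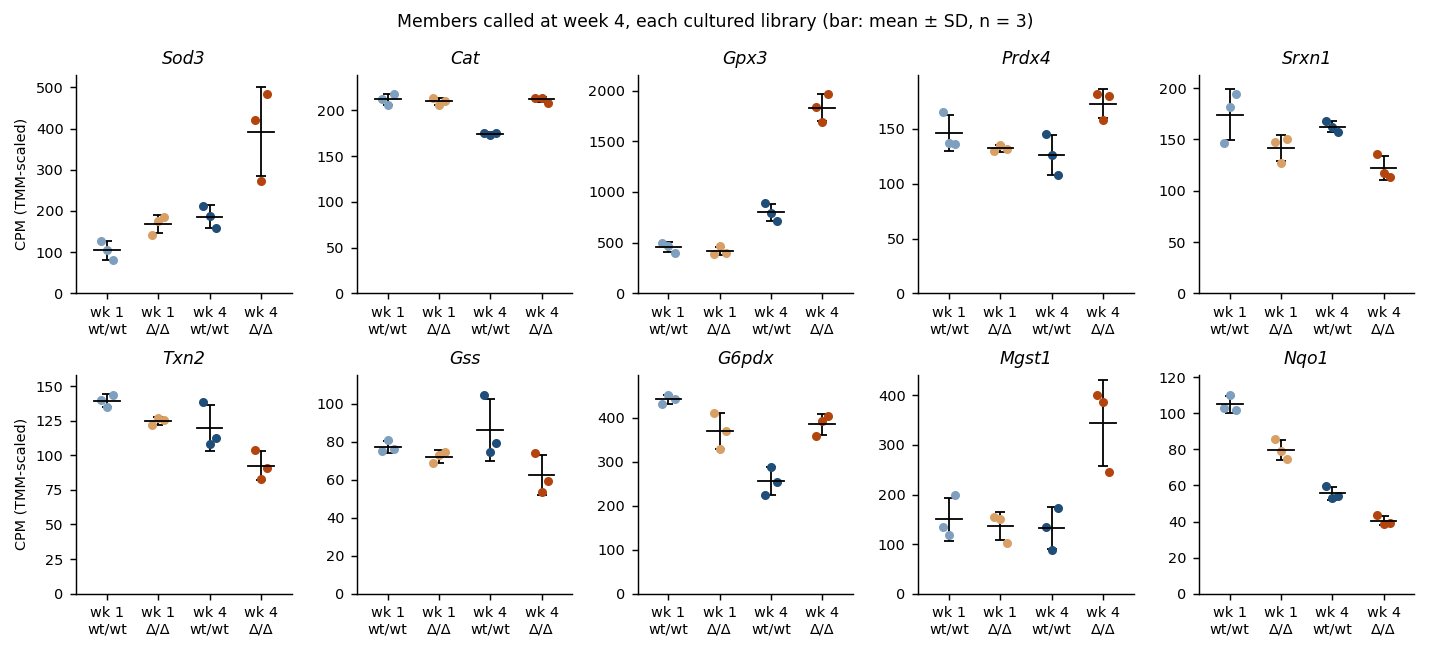
CPM of the 10 members called at week 4 in each of the 12 cultured libraries, by group, with the mean and SD of 3 libraries in black and axes from 0. In all 10 panels the week 4 Δ/Δ libraries lie wholly above or wholly below the week 4 wt/wt libraries. For Gpx3, Sod3 and Mgst1 the Δ/Δ libraries of week 4 are the highest of all 12, and for Cat and G6pdx the wt/wt libraries of week 4 are the lowest.

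In glutathione synthesis and recycling, G6pdx was higher and Gss lower. G6pdx was at 225, 288 and 254 CPM in wt/wt and 358, 392 and 405 CPM in Δ/Δ, without overlap, a 1.51-fold difference (log2 0.59 ± 0.12 (SE), adjusted p = 0.00372, edgeR). Gss, the synthetase that completes glutathione, was at 105, 74.5 and 79.4 CPM in wt/wt and 74.2, 53.7 and 59.5 CPM in Δ/Δ (log2 -0.46 ± 0.14 (SE), adjusted p = 0.0468, edgeR). The highest Δ/Δ library and the lowest wt/wt library of Gss nearly touched, and the call was lost without wt/wt replicate 1 or 3 or Δ/Δ replicate 2 or 3 (adjusted p 0.0507 to 0.147). The rate-limiting ligase did not differ beyond its spread, with the catalytic subunit Gclc at 86.8, 68.7 and 70.0 CPM in wt/wt and 95.5, 74.9 and 68.2 CPM in Δ/Δ and Gclm at 103, 86.1 and 110.4 CPM in wt/wt and 99.0, 118 and 91.2 CPM in Δ/Δ. Slc7a11 was at 2.17, 4.80 and 4.54 CPM in wt/wt and 1.13, 3.51 and 2.79 CPM in Δ/Δ, a wide interval of -1.44 to 0.10 on the log2 scale around -0.67. Gsr was at 53.6, 44.0 and 49.1 CPM in wt/wt and 65.5, 61.3 and 56.5 CPM in Δ/Δ, all Δ/Δ libraries above, and missed the threshold (log2 0.32 ± 0.11 (SE), adjusted p = 0.08, edgeR). Of the glutathione transferases, Mgst1 was at 135, 87.9 and 174 CPM in wt/wt and 401, 388 and 245 CPM in Δ/Δ. Every Δ/Δ library was above every wt/wt one, and the 2.60-fold difference was the largest of the 35 (log2 1.38 ± 0.28 (SE), adjusted p = 0.00465, edgeR). Gsta4, which conjugates aldehydes from lipid peroxidation, was at 30.6, 33.5 and 27.7 CPM in wt/wt and 30.1, 35.8 and 39.3 CPM in Δ/Δ and Gstm1 at 157, 104 and 91.1 CPM in wt/wt and 175, 129 and 169 CPM in Δ/Δ, and neither passed.

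On the NRF2 axis, Nfe2l2 was at 192, 173 and 181 CPM in wt/wt and 202, 170.4 and 169.9 CPM in Δ/Δ, and Keap1 at 111, 108 and 93.4 CPM in wt/wt and 106, 75.7 and 109 CPM in Δ/Δ. Both overlapped, with 95% intervals of -0.23 to 0.21 and -0.43 to 0.22 on the log2 scale. NRF2 is controlled mainly through the stability of its protein, which these data do not measure. Of its targets, Nqo1 was lower in Δ/Δ, at 43.3, 38.8 and 39.0 CPM against 59.9, 53.0 and 53.9 CPM in wt/wt, without overlap (log2 -0.46 ± 0.10 (SE), adjusted p = 0.00608, edgeR). It lost its call only when the 6 week 4 libraries were fitted alone (adjusted p = 0.0647). Hmox1 was at 97.7, 189 and 164 CPM in wt/wt and 73.0, 113 and 126 CPM in Δ/Δ, with overlap (log2 -0.53 ± 0.23 (SE), adjusted p = 0.162, edgeR). The lowest library of each genotype was replicate 1. These 2 libraries were also low in Xist, at 10.7 and 11.1 CPM against 17.8 to 30.2 CPM in the other 10. Without them, an alternative chosen after the data were seen, Hmox1 passed (adjusted p = 0.0197) and Cat did not (adjusted p = 0.0672). Gstm1 passed as well, for 11 members in all, beside 2005 of all genes. The metallothioneins were low and overlapped, Mt1 at 17.3, 21.7 and 19.3 CPM in wt/wt and 14.8, 14.4 and 20.4 CPM in Δ/Δ and Mt2 at 1.12, 2.02 and 1.91 CPM in wt/wt and 1.27, 1.58 and 1.93 CPM in Δ/Δ.

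Markers of the lineages that BM MSCs form also moved with genotype at week 4. All 8 osteoblast markers were called lower in Δ/Δ, with a summed level of 20821 to 28379.8 CPM in wt/wt and 9548 to 14711 CPM in Δ/Δ. Of 5 tested adipocyte markers 4 were called higher, with 264 to 318 CPM in wt/wt and 1133 to 1489 CPM in Δ/Δ, of which Lpl made the largest share. Of 11 stromal markers 5 were called higher, among them Vcam1 (log2 1.66 ± 0.16, adjusted p = 1.35e-05, edgeR), Pdgfra (log2 1.30 ± 0.18, adjusted p = 0.00031) and Cxcl12 (log2 0.96 ± 0.15, adjusted p = 0.000859), and 3 lower (Nes, Col1a1 and Col1a2), with sums of 18695 to 33652 CPM in wt/wt and 21779 to 29463 CPM in Δ/Δ. Of 3 tested chondrocyte markers 2 were higher, Comp and Col10a1, and the sums of that list were 1235 to 3499.8 and 1746 to 2380.0 CPM. Their part in the differences of Sod3, Gpx3, Mgst1 and the other members was not tested. Proliferation markers did not pass at week 4 (0 of 8, sums of 159 to 209.8 and 191 to 255 CPM). Nor did the immediate early genes (0 of 7), whose sums of 1481 to 2039 CPM in wt/wt and 2137 to 2799 CPM in Δ/Δ did not overlap. The part of these 2 lists was not tested either.

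Upstream sequences are shown for the members whose week 4 calls bear on NRF2. The antioxidant response element was searched on both strands as TGACNNNGC or TGAGNNNGC in the 250 bases before each RefSeq start (GRCm38.p6). Either form was present in 23% of the 32851 windows of all genes (TGACNNNGC in 10.2% and TGAGNNNGC in 14.4%). For 29 of the 35 members a window was at hand, and 11 of these members, or 11 of 36 windows (30.6%), held a match. They were Sod1, Prdx1, Srxn1, Txn2, Txnrd1, Slc7a11, Gclm, G6pdx, Mgst1, Nfe2l2 and Mt2. The whole windows, without bases in an annotated exon, are given for Srxn1 and Nqo1, the NRF2 targets lower in Δ/Δ at week 4, with matches in capitals (a match on the opposite strand reads as its reverse complement).
Srxn1 chr2:152105274-152105515 (plus strand): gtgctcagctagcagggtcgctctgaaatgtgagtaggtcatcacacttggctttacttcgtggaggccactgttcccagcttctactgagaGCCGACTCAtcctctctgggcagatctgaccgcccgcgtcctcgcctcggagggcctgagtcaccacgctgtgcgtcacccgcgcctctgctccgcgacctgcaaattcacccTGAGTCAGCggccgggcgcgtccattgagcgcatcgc
Nqo1 chr8:107403207-107403455 (minus strand): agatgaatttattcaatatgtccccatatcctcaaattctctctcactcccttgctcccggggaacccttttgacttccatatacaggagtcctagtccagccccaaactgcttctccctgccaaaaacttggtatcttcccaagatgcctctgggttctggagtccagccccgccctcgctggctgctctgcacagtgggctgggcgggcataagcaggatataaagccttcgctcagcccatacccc
The Srxn1 window held 2 matches and the Nqo1 window none, which says only that these letters are not in this window. For all 4 members called at week 4 that had a match, the 29 bases around it are given in the direction of transcription, again with the match in capitals.
Srxn1 chr2:152105356-152105384 (plus strand): tctactgagaGCCGACTCAtcctctctgg
Srxn1 chr2:152105469-152105497 (plus strand): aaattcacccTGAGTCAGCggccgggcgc
Txn2 chr15:77929163-77929191 (minus strand): cttccttcccGCCCTCTCAcccatctcct
G6pdx chrX:74428919-74428947 (minus strand): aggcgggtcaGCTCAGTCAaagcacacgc
Mgst1 chr6:138140461-138140489 (plus strand): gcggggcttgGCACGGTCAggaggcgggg
Srxn1 and Txn2 were lower in Δ/Δ and G6pdx and Mgst1 higher, so members with a match lay on both sides. The match of Srxn1 nearer the start also holds TGAGTCA, the letters of an AP-1 site (TGAGTCA or TGACTCA, in 4.46% of all windows). The matches of G6pdx and Mgst1 fall within annotated exons. The genes lie at chr2:152105516-152111376 (Srxn1), chr8:107388225-107403206 (Nqo1), chrX:74409483-74429194 (G6pdx) and chr6:138140316-138156755 (Mgst1), and Gpx3 and Sod3 at chr11:54902453-54910377 and chr5:52363791-52371418. Gpx3 held no match and Sod3 had no window.

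Whether the genotype difference itself changed between week 1 and week 4 was tested as an interaction in the same fit. In 4 members, Gpx3, Gsr, G6pdx and Mgst1, it was more positive at week 4, and in none more negative, while 7.15% of all genes passed this test (4.08% higher and 3.08% lower). There were 8 members at an unadjusted p under 0.05 (18.4% of all genes), and 10 of 35 had a change below 0 (49%). Gpx3 went from a log2 difference of -0.12 at week 1 to 1.20 at week 4, a change of 1.32 ± 0.18 (SE), adjusted p = 0.000629 by edgeR. G6pdx turned from -0.26 to 0.59 (change 0.85 ± 0.16 (SE), adjusted p = 0.00669, edgeR). For Gsr, -0.32 at week 1 and 0.32 at week 4, neither genotype difference passed, but their change did (0.64 ± 0.16 (SE), adjusted p = 0.0295, edgeR). Mgst1 went from -0.15 to 1.38 (change 1.53 ± 0.39 (SE), adjusted p = 0.0337, edgeR). For Gsr and Mgst1 this call was not stable. Leaving out wt/wt replicate 3 of week 1, any Δ/Δ replicate of week 1, wt/wt replicate 2 of week 4, or Δ/Δ replicate 1 or 2 of week 4 lost the call of both, and leaving out wt/wt replicate 3 of week 4 lost Gsr (adjusted p 0.0514 to 0.0859 for Gsr and 0.0532 to 0.101 for Mgst1). That left 2 members in most of these cases and 3 in the last, and leaving out wt/wt replicate 1 of week 4 gave 7. Without both week 4 libraries low in Xist there were 6, without Mgst1 (adjusted p = 0.0818) and with Prdx4 and Gstm1 higher and Slc7a11 lower. Of all genes, 942 passed in the main fit, 647 to 1248 with 1 library left out and 1086 without both of these. For Sod3, with log2 differences of 0.68 and 1.08, the change of 0.39 did not pass (adjusted p = 0.599, edgeR), and for Nqo1, with -0.40 and -0.46, it was -0.07 (adjusted p = 0.89, edgeR).

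Over time in culture, from week 1 to week 4, 14 members differed in wt/wt (40%, beside 34% of all genes) and 18 in Δ/Δ (51.4%, beside 35.1%). In wt/wt, 6 rose (Sod2, Sod3, Gpx3, Gpx8, Gsta4 and Nfe2l2, where 17.9% of all genes rose) and 8 fell (Cat, Prdx1, Prdx6, Txn1, Txnrd1, Gsr, G6pdx and Nqo1, where 16.1% fell). In Δ/Δ, 10 rose (Sod2, Sod3, Gpx3, Gpx8, Prdx4, Prdx5, Gclm, Gsta4, Mgst1 and Nfe2l2, where 18.8% of all genes rose) and 8 fell (Prdx1, Prdx3, Prdx6, Txn1, Txn2, Txnrd1, Slc7a11 and Nqo1, where 16.3% fell). At an unadjusted p under 0.05 there were 16 members in wt/wt (43.5%) and 20 in Δ/Δ (44.4%). The fitted change was below 0 for 21 members in wt/wt (50.7%) and 16 in Δ/Δ (49.8%). The weeks did not overlap in 6 members that were higher at week 4 in wt/wt (22.5%) and 11 that were lower (21.3%), and in Δ/Δ in 11 (25.9%) and 9 (25.3%). These 2 comparisons share their libraries with the genotype comparisons, so they are not independent of them.

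The largest rise in Δ/Δ was in Gpx3, from 388, 465 and 399 CPM at week 1 to 1841, 1691 and 1962 CPM at week 4 (log2 2.13 ± 0.13 (SE), adjusted p = 3.19e-07, edgeR). In wt/wt it went from 499.7, 464 and 401 to 887, 795 and 716 CPM (log2 0.81 ± 0.13 (SE), adjusted p = 0.000343, edgeR). All week 4 libraries of either genotype lay above all week 1 libraries of that genotype. Sod3 rose by 0.83 in wt/wt and 1.23 in Δ/Δ on the log2 scale (adjusted p = 0.0101 and 0.000887, edgeR). Mgst1 rose in Δ/Δ, from 155, 149.7 and 103 to 401, 388 and 245 CPM (log2 1.34 ± 0.28 (SE), adjusted p = 0.00272, edgeR). In wt/wt Mgst1 was at 134, 117 and 199 CPM at week 1 and 135, 87.9 and 174 CPM at week 4, with overlap. Gsta4 rose from 18.9, 18.4 and 17.8 to 30.6, 33.5 and 27.7 CPM in wt/wt (log2 0.74 ± 0.13 (SE), adjusted p = 0.000929, edgeR) and from 19.1, 15.5 and 16.6 to 30.1, 35.8 and 39.3 CPM in Δ/Δ (log2 1.04 ± 0.13 (SE), adjusted p = 7.23e-05, edgeR). Gpx8 and Sod2 rose in both genotypes, Gpx8 from 176 ± 14.3 to 265 ± 59.2 CPM in wt/wt and from 171 ± 13.9 to 314 ± 30.6 CPM in Δ/Δ (SD, n = 3), and Sod2 from 59.9, 53.7 and 55.1 to 76.7, 73.0 and 69.3 CPM in wt/wt and from 58.6, 56.6 and 57.0 to 81.1, 78.4 and 86.8 CPM in Δ/Δ.

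**Figure D4:**
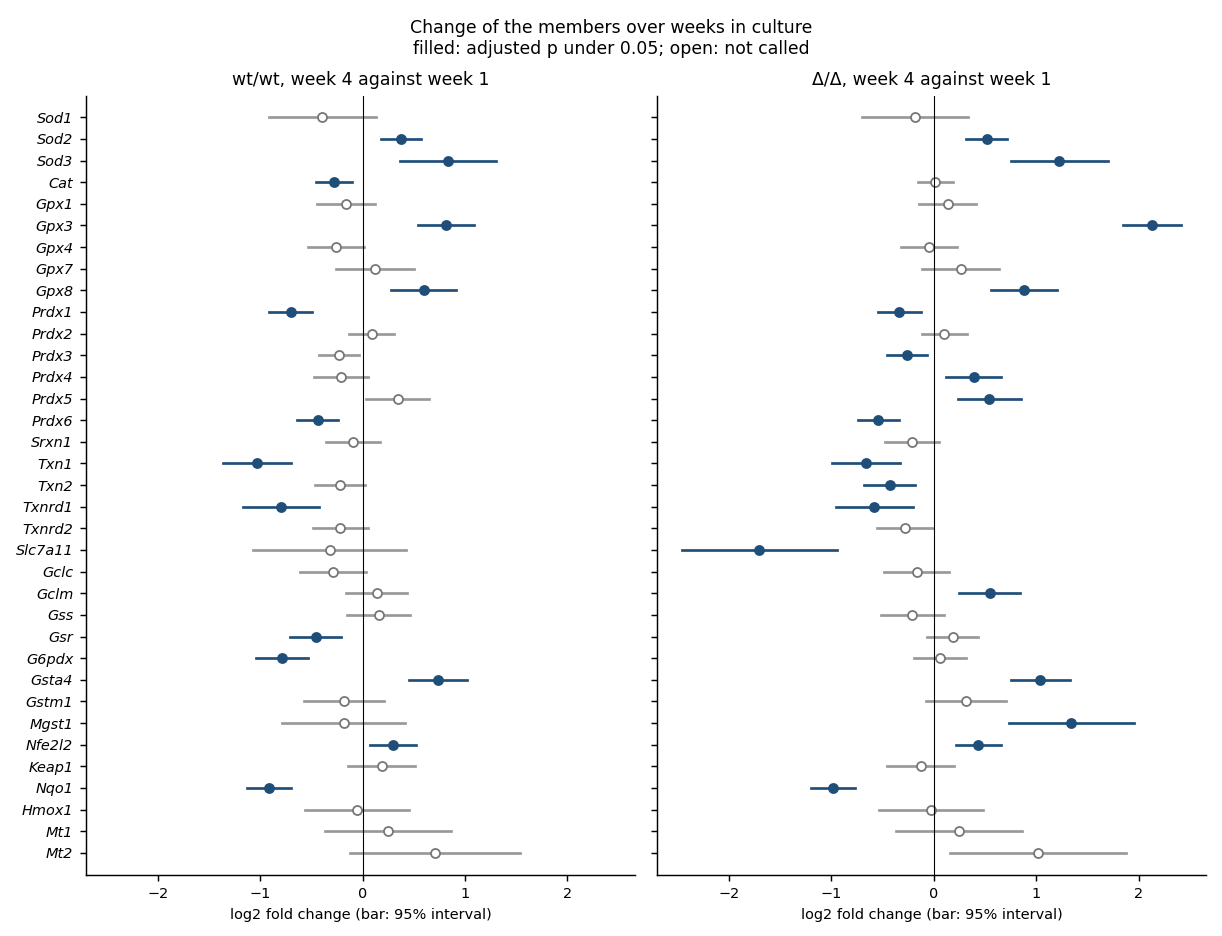
Log2 fold change of each member at week 4 against week 1 in wt/wt (left) and Δ/Δ (right), with 95% intervals from the edgeR fit of 12 libraries. Filled points have an adjusted p under 0.05. Txn1, Txnrd1, Prdx1, Prdx6 and Nqo1 are filled below 0 and Sod2, Sod3, Gpx3, Gpx8, Gsta4 and Nfe2l2 filled above 0 in both panels, Slc7a11 and Mgst1 only in the right one, and G6pdx, Gsr and Cat only in the left one.

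Of the members that fell, Nqo1 had the smallest adjusted p in both genotypes. It went from 103, 110.3 and 102 to 59.9, 53.0 and 53.9 CPM in wt/wt (log2 -0.92 ± 0.10 (SE), adjusted p = 1.72e-05, edgeR) and from 85.6, 79.0 and 74.8 to 43.3, 38.8 and 39.0 CPM in Δ/Δ (log2 -0.98 ± 0.10 (SE), adjusted p = 1.21e-05, edgeR). Txn1 went from 151, 101 and 105 to 58.7, 58.5 and 57.5 CPM in wt/wt (log2 -1.03 ± 0.15 (SE), adjusted p = 0.000248, edgeR) and from 107, 81.1 and 96.3 to 59.7, 55.8 and 64.0 CPM in Δ/Δ (log2 -0.66 ± 0.15 (SE), adjusted p = 0.00498, edgeR). Its reductase Txnrd1 fell with it, from 293, 334 and 342 to 133, 213 and 210.4 CPM in wt/wt (log2 -0.80 ± 0.17 (SE), adjusted p = 0.00344, edgeR) and from 284, 254 and 289.8 to 154, 210.0 and 189 CPM in Δ/Δ (log2 -0.58 ± 0.17 (SE), adjusted p = 0.02, edgeR). Slc7a11 showed the largest fall of all in Δ/Δ, from 6.47, 8.57 and 8.97 to 1.13, 3.51 and 2.79 CPM (log2 -1.70 ± 0.35 (SE), adjusted p = 0.00234, edgeR), and was at 5.36, 4.33 and 5.01 CPM at week 1 and 2.17, 4.80 and 4.54 CPM at week 4 in wt/wt, with overlap. G6pdx fell in wt/wt by 0.79 on the log2 scale (adjusted p = 0.000233, edgeR), and in Δ/Δ its interval was -0.19 to 0.31.

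Several of these calls did not hold when 1 library was left out, most of them for more than 1 choice of library. Without the 2 week 4 libraries low in Xist the counts were 18 in wt/wt (adding falls of Prdx3, Txn2, Gclc and Gstm1) and 20 in Δ/Δ (adding Gss and Mt2). All genes called then numbered 4672 and 4928. In wt/wt, Nfe2l2 went from 136, 149 and 159 to 192, 173 and 181 CPM, and the call did not hold when replicate 1 or 2 of week 1, or 1 or 3 of week 4, was left out (adjusted p 0.0606 to 0.141). With a replicate block within each genotype, which pairs the wt/wt libraries of the 2 weeks by number, the adjusted p of Nfe2l2 was 0.0584 and Prdx5 passed in its place. Cat lost its fall without wt/wt replicate 3 of week 1 (adjusted p = 0.0577). In Δ/Δ, Prdx1 and Txnrd1 lost theirs without replicate 1 or 3 of week 1 or of week 4 (adjusted p 0.0545 to 0.0742 and 0.051 to 0.0831), Prdx4 also without replicate 2 of week 1 (adjusted p 0.0616 to 0.0812), and Prdx3 without any 1 library (adjusted p 0.0747 to 0.119). Keap1, at 104, 92.2 and 78.3 CPM in wt/wt and 104, 98.9 and 115 CPM in Δ/Δ at week 1, passed in no comparison. Over the same weeks all 8 proliferation markers fell in both genotypes, from sums of 785 to 825 (wt/wt) and 721 to 766 CPM (Δ/Δ) to the week 4 sums given above. Osteoblast markers rose in wt/wt (7 of 8) and in Δ/Δ (4 of 8), and the part of either in the members' changes was not tested.

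In the sorted tdTomato+ cells, no member and none of the 14605 tested genes passed between Δ/Δ and wt/Δ by edgeR (0%). At an unadjusted p under 0.05 there were 6 members, all lower in Δ/Δ (Gpx4, Gpx7, Gpx8, Prdx4, Prdx5 and Txn2), with 12.3% of all genes at that level. In 28 of 35 members the fitted level was lower in Δ/Δ (50.6% of all genes), and the median member was at -0.35 against -0.0066 over all genes. In 5 members every Δ/Δ library lay below every wt/Δ library (11.1% of all genes), and in 1, Gclc, every Δ/Δ library lay above (9.4%). DESeq2 called 3 members lower, Gpx7, Prdx4 and Txn2, among 463 genes.

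Gpx7, a peroxidase of the endoplasmic reticulum, had the smallest p. It was at 131, 147 and 131 CPM in wt/Δ and 82.2, 86.3 and 82.8 CPM in Δ/Δ, a gap wider than the spread of either group (log2 -0.70 ± 0.14 (SE), adjusted p = 0.24, edgeR). Its neighbours in that compartment were Prdx4, at 344, 300.4 and 224 CPM in wt/Δ and 176, 202 and 166 CPM in Δ/Δ (log2 -0.68 ± 0.20 (SE), adjusted p = 0.281, edgeR), and Gpx8, at 490.1, 466 and 323 CPM in wt/Δ and 322, 283 and 206 CPM in Δ/Δ (log2 -0.66 ± 0.24 (SE), adjusted p = 0.339, edgeR). In Gpx8 the lowest wt/Δ library and the highest Δ/Δ library nearly met. Of the others, Prdx5, found in mitochondria and peroxisomes, was at 267, 211 and 172 CPM in wt/Δ and 138, 141 and 138 CPM in Δ/Δ (log2 -0.64 ± 0.19 (SE), adjusted p = 0.281, edgeR), Txn2 at 160.1, 136 and 117 CPM in wt/Δ and 94.4, 93.5 and 89.3 CPM in Δ/Δ (log2 -0.58 ± 0.16 (SE), adjusted p = 0.265, edgeR) and Gpx4 at 292, 228 and 153 CPM in wt/Δ and 136, 143 and 165 CPM in Δ/Δ, with overlap (log2 -0.60 ± 0.24 (SE), adjusted p = 0.382, edgeR).

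**Figure D5:**
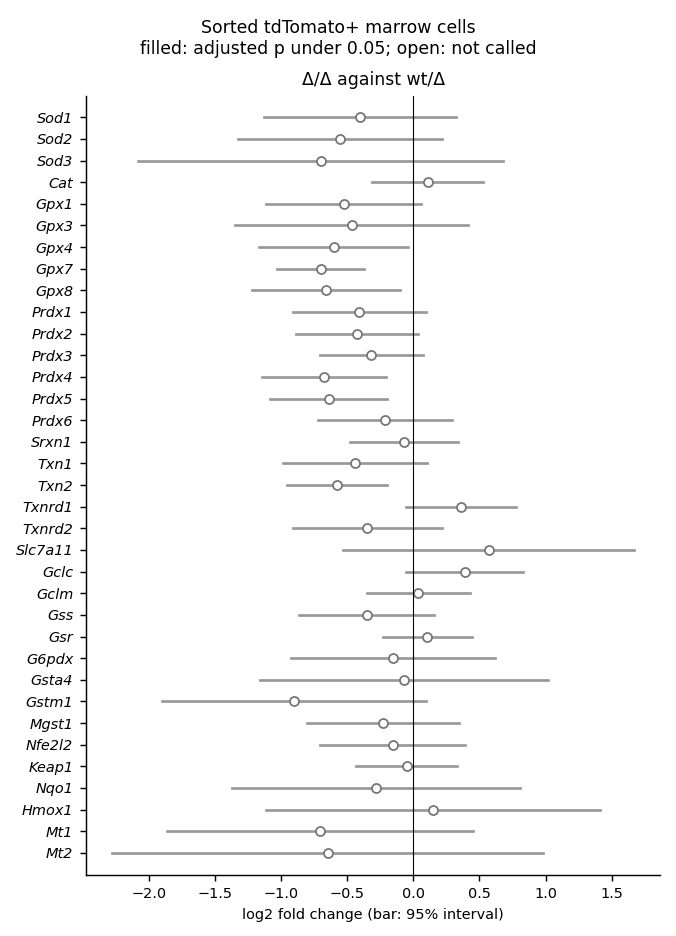
Log2 fold change of each member in sorted Δ/Δ against wt/Δ cells, with 95% intervals from the edgeR fit of 6 libraries. No point is filled, since no adjusted p was under 0.05, and 28 of 35 points lie below 0.

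The 4 members called lower in cultured Δ/Δ at week 4 (Srxn1, Txn2, Gss and Nqo1) also had a lower fitted level in sorted Δ/Δ. Of the 6 called higher in culture, Cat had a higher fitted level here. The others, Sod3, Gpx3, Prdx4, G6pdx and Mgst1, had a lower one, as did 28 of all 35 members. None passed here by edgeR, and among these called members only Txn2 and Prdx4 had groups without overlap. Several of the called members had wide intervals in the sorted cells. Gpx3 was at 2959, 1634 and 1132 CPM in wt/Δ and 1799, 1326 and 1025 CPM in Δ/Δ (95% interval -1.34 to 0.42 on the log2 scale), Sod3 at 129, 32.6 and 21.4 CPM in wt/Δ and 43.7, 37.0 and 31.9 CPM in Δ/Δ (-2.08 to 0.68) and Mgst1 at 547, 331 and 319 CPM in wt/Δ and 296, 373 and 352 CPM in Δ/Δ (-0.80 to 0.34). In each of these replicate 1 of wt/Δ was the highest library, and the rest overlapped. G6pdx was at 227, 135 and 85.0 CPM in wt/Δ and 152, 139 and 112 CPM in Δ/Δ and Nqo1 at 25.9, 11.2 and 6.11 CPM in wt/Δ and 12.7, 11.2 and 11.6 CPM in Δ/Δ, with the same library on top. Gclc was at 50.6, 33.9 and 38.4 CPM in wt/Δ and 58.1, 51.2 and 51.4 CPM in Δ/Δ, where the lowest Δ/Δ library was just above the highest wt/Δ one. Nfe2l2 (257, 186 and 139 CPM in wt/Δ and 193, 169 and 161 CPM in Δ/Δ), Keap1, Hmox1 (332, 314 and 67.4 CPM in wt/Δ and 173, 364 and 252 CPM in Δ/Δ), Cat, Sod1, Sod2 and Gpx1 overlapped between the groups.

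Of 8 osteoblast markers, 7 had a lower fitted level in sorted Δ/Δ, with sums of 21350 to 27501 CPM in wt/Δ and 11717 to 25806 CPM in Δ/Δ. All 6 chondrocyte markers were lower, with sums of 29.7 to 655 CPM and 75.0 to 207 CPM. Stromal markers went both ways (5 of 11 lower), and 7 of 8 proliferation markers were higher. None of these genes passed, and their part in the members' differences was not tested. Single libraries stood apart in the sorted set. Replicate 1 of wt/Δ held 14081 CPM of 6 adipocyte markers, against 4955 and 2885 CPM in the other wt/Δ libraries and 6303 to 6719.9 CPM in Δ/Δ. It was the highest of the 6 libraries in 24 of 35 members. The share of all genes highest in that library was not counted, so the number cannot be read as a trait of the members. How far its adipocyte content sets these levels was not tested. Without that library, 19 of 35 members lay below 0 and the median was -0.06. The share of all genes below 0 was not counted in this or the later fits of this paragraph. Replicate 2 of wt/Δ and replicate 3 of Δ/Δ held 1837 and 1003 CPM of megakaryocyte markers, against 19.4 to 29.0 CPM in the other 4, and without both, as chosen after the data were seen, 26 members lay below 0 (median -0.35). Replicates 1 and 3 of wt/Δ expressed the Y-linked gene Ddx3y (89.0 and 121 CPM) and the other 4 did not, so the sex of the mice and the genotype are mixed. With sex as a term, also added later and resting on 1 female wt/Δ library, 24 members lay below 0 (median -0.24) and none passed.

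The genes around the members were read from lists that hold no member. At week 4, of 17 tested other glutathione transferases 4 were higher in Δ/Δ and none lower (23.5%, beside the 15.7% of all genes), led by Gstt1 (log2 0.88 ± 0.13, adjusted p = 0.000547, edgeR), Mgst2 (log2 1.33 ± 0.27, adjusted p = 0.00443) and Gstk1 (log2 0.77 ± 0.19, adjusted p = 0.0128), and the median of the list was 0.08. Of 15 genes of cystine supply and glutathione turnover 26.7% were called. There 2 were higher, Ggt5 (log2 0.66 ± 0.16, adjusted p = 0.0124) and Oplah (log2 0.48 ± 0.12, adjusted p = 0.0148), and 2 lower. One of these was Chac1, a stress-induced enzyme that degrades glutathione (log2 -1.37 ± 0.22, adjusted p = 0.000821), and the other Slc25a39, a mitochondrial glutathione carrier. Of 12 NRF2 partners and regulators and of 17 other NRF2 targets, none passed at week 4 by edgeR, with medians of -0.02 and -0.04. Of 14 genes of NADPH supply 3 (21.4%) were lower, the mitochondrial malic enzyme Me2 (log2 -1.56 ± 0.16, adjusted p = 2.24e-05), the mitochondrial folate enzyme Aldh1l2 (log2 -1.76 ± 0.18, adjusted p = 2.33e-05) and Mthfd1 (log2 -0.40 ± 0.11, adjusted p = 0.0286), and none higher, while the member G6pdx of the same supply was higher.

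Of 27 tested genes of other thiol and peroxide defence, 4 were higher at week 4 and none lower, a share of 14.8% that was close to that of all genes (15.7%). They were Sepp1, the secreted selenium carrier selenoprotein P (log2 1.38 ± 0.13, adjusted p = 1.27e-05, edgeR), the glutaredoxin Glrx (log2 0.74 ± 0.15, adjusted p = 0.00402), the thioredoxin inhibitor Txnip (log2 1.61 ± 0.38, adjusted p = 0.0112) and Sesn1. Sepp1 went from 305 ± 6.29 CPM in wt/wt to 794 ± 62.5 CPM in Δ/Δ (SD, n = 3). None of the 8 genes of selenoprotein synthesis passed. On the side that makes superoxide and hydrogen peroxide, 5 of 15 tested genes were higher in Δ/Δ and 1, Aox1, lower (40% called). The smallest adjusted p among them were those of the monoamine oxidase Maob (log2 1.04 ± 0.13, adjusted p = 0.00011), the NADPH oxidase subunit Cybb (log2 3.01 ± 0.42, adjusted p = 0.000311, from 0.351 ± 0.219 to 3.00 ± 0.373 CPM) and xanthine dehydrogenase, Xdh (log2 0.60 ± 0.11, adjusted p = 0.00247). At week 1, the only calls in any of these lists were in the last one, Xdh (log2 0.64 ± 0.11, adjusted p = 0.0185) and Ncf1 (log2 0.94 ± 0.20, adjusted p = 0.0478), both higher in Δ/Δ. In sorted cells no gene of these lists passed.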

How the data were processed

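RNA was extracted from each population, amplified with SMART-Seq v4 and made into Nextera XT libraries, which keep no strand. The authors used HISAT2 2.0.4 for alignment to mm10 and featureCounts 1.6.3 for gene counting. They deposited raw counts per gene symbol, 1 table for the 12 cultured and 1 for the 6 sorted libraries. How reads matching several places were treated is not given in the sources used here, so members with close copies or pseudogenes (Gstm1, Gpx4, Prdx6, Txn1) are uncertain.

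The members and lists were chosen with earlier results of these data known. Genes were kept by filterByExpr of edgeR 4.0.16 (minimum count 10), scaled by TMM and fitted by the quasi-likelihood method in R 4.3.3, 1 model with a mean per group for the 12 cultured libraries and 1 for the 6 sorted. P-values were adjusted over all tested genes. Normalised CPM, means ± SD (n = 3) and 95% intervals are given, and a member was called at an adjusted p under 0.05. Exon lengths came from the GENCODE annotation and upstream sequence from RefSeq (GRCm38.p6). Alternatives were RLE or library-size scaling, other filters, DESeq2 1.42.0, a replicate block, the compared libraries alone and each library left out. The edgeR step was tested on simulated data, and the DESeq2 step was not.

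Values in every library were given for members called by genotype or interaction, the largest changes over time, the highest members per length and the core of the pathway. Of the wider lists, up to 3 called genes per list by smallest adjusted p were given with values, and the other called genes that are named were added after their values were seen. Same-numbered wt/wt libraries of both weeks deviated together (correlations 0.152, 0.220 and 0.209 for numbers 1, 2 and 3), and no other pair of groups did so in all 3 numbers. The labels do not say which libraries share a mouse or day, so p-values measure the spread between these libraries. Replicates differed by more than counting noise in all 18 pairs (chi-squared per degree of freedom 10.8 to 376). A permutation of 3 against 3 libraries cannot go below p = 0.1, so no single-gene permutation test is given.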

Additional observations from a re-analysis of the deposited data

Results flagged for a closer look

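In 4 members the genotype difference itself differed between the weeks, by the interaction test of the edgeR fit (n = 3 libraries per group). The change of the log2 difference from week 1 to week 4 was 1.32 for Gpx3 (adjusted p = 0.000629), 0.85 for G6pdx (adjusted p = 0.00669), 0.64 for Gsr (adjusted p = 0.0295) and 1.53 for Mgst1 (adjusted p = 0.0337). For Gpx3 every week 4 Δ/Δ library exceeded every week 4 wt/wt library, and at week 1 the genotypes overlapped. For G6pdx and Gsr the Δ/Δ libraries were wholly below wt/wt at week 1 and wholly above at week 4. Gpx3 and G6pdx passed in all 19 alternatives run, Gsr and Mgst1 did not. Markers moved both ways in the same test. Of osteoblast markers 7 of 8 were called lower. Higher were 1 of 5 adipocyte markers, Lpl (log2 2.41 ± 0.23, adjusted p = 5.01e-05), 1 of 3 chondrocyte markers, Col10a1 (log2 1.12 ± 0.22, adjusted p = 0.00753), 3 of 7 immediate early genes, and 2 of 11 stromal markers, Pdgfra (log2 1.39 ± 0.25, adjusted p = 0.00464) and Vcam1 (log2 1.48 ± 0.22, adjusted p = 0.00114), where 2 others were lower. Their part in the members' changes was not tested.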

How the results depend on the processing

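No called member changed sign under any alternative. Each comparison under each alternative was counted once, 90 in all, many of them from a shared fit and shared libraries. Over these, which made 3145 tests of members, 93 calls were lost and 36 gained. Members that were not called changed sign 114 times, most often in sorted cells with sex as a term (10 members) or without wt/Δ replicate 1 (9) and at week 1 without wt/wt replicate 1 (7). With 1 library left out, the week 1 difference of Mgst1 ran from -0.30 to 0.11, the week 4 difference of Nfe2l2 from -0.11 to 0.031 and that of Keap1 from -0.20 to 0.026. At week 1, DESeq2 called 2 members and the 6 libraries alone 1, beside 453 and 237 of all genes. At week 4 the count of 10 was 6 with no filter on low counts, 4 with the 6 libraries alone and 5 to 11 with 1 library left out. Of all genes, 2062 were called in the main fit at week 4, and 1941, 1267 and 1551 to 2339 in these. Over time the count of members was 13 to 16 in wt/wt and 14 to 17 in Δ/Δ when 1 library was left out, and 2 to 7 for the interaction. All genes called there numbered 3614 to 4428, 3353 to 4294 and 647 to 1248, against 4483, 4623 and 942 in the main fit. DESeq2 called 3 members in sorted cells, where edgeR called 0 in every alternative. Some of these alternatives held fewer libraries or tested more genes, and the causes of the changed counts were not tested.

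With a replicate block, the interaction gave 2 members (Gpx3 and G6pdx) and week 4 gave 7 (without Cat, Srxn1 and Gss). Time in wt/wt gave 13 and in Δ/Δ 17, and week 1 and sorted cells 0. All genes called with the block were 886 for the interaction, 1909 at week 4, and 4314 and 4537 over time. At week 4 the correlations of same-numbered wt/wt and Δ/Δ libraries were 0.636, 0.226 and -0.0835 for numbers 1, 2 and 3, so number 1 deviated together and number 3 did not, and whether these libraries shared a mouse or day is not given. Other scalings shifted the median of all genes by under 0.1 on the log2 scale, and scaling by library size moved 4 of 210 group means by 1 SD or more (ratios 0.932 to 1.03). Depth bears most on Mt2 and Slc7a11, the members with the fewest reads in culture, and the 3 libraries per group limit the precision of the rest.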

Other observations

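Iron takes part in peroxide chemistry, and genes of iron handling that are no members of the group differed at week 4. Of 10 tested, 2 were higher and 2 lower in Δ/Δ (40%, beside 15.7% of all genes). Slc40a1, the iron exporter ferroportin, went from 4.36 ± 1.02 CPM in wt/wt to 31.1 ± 4.46 CPM in Δ/Δ (SD, n = 3, log2 2.85 ± 0.19, adjusted p = 1.11e-06, edgeR), and Heph, the ferroxidase hephaestin that works with it, from 15.6 ± 3.20 to 56.8 ± 9.64 CPM (log2 1.86 ± 0.19, adjusted p = 2.33e-05, edgeR). Steap3, a ferrireductase of the transferrin cycle, was lower (log2 -0.80 ± 0.17, adjusted p = 0.00569, edgeR), as was the importer Slc11a2. Of 11 tested genes of metal sensing and zinc transport, the list nearest to the metallothioneins, 1 (9.09%) was higher, the zinc importer Slc39a8 (log2 0.51 ± 0.16, adjusted p = 0.0484, edgeR), and Mt1 and Mt2 themselves did not pass.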
